A study of Mus musculus with 24 samples.

Results

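The MHC class I chains and their shared light chain were followed at the RNA level in mouse lung tumours. The 6 genes were taken from a named list and matched by Ensembl gene identifier: the heavy chains H2-K1, H2-D1, H2-T23, H2-Q4 and H2-M3, and the light chain B2m (beta-2 microglobulin). They are 6 of the 37230 genes present in either of 2 deposited tables, and all 6 were present in both. RNA came from live CD45-negative cells sorted on day 15 from tumours grown by injecting mice with either of 2 lung tumour lines: LLC1, the Lewis lung carcinoma line, or KP. KP is a line from an engineered mouse model that carries floxed p53 (p53 flox/flox), which all KP groups share. In LLC1 there were 3 groups: parental, chronic IFNG (long exposure to interferon gamma at a low level) and relapsed, meaning relapse under immune checkpoint blockade (ICB). The 5 groups of KP comprised parental and chronic IFNG tumours and a 1st, a 2nd and a late relapse. The treatment field of every library reads none, and the labels give no host strain, sex or age and do not say from how many clones each derived line came. Each of the 8 groups held 3 libraries, which the submitters call biological replicates. Nothing states that they came from separate animals, so p-values measure only the spread between these samples. The study asked how tumours with acquired resistance to immunotherapy differ, and the comparisons here ask how the class I chains differed between derived and parental tumours and whether the heavy chains moved with the light chain.

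A class I molecule is a heavy chain that holds a peptide, bound to B2m, which does not span the membrane. H2-K1 and H2-D1 encode the classical heavy chains K and D that present peptides to CD8 T cells. H2-T23 encodes the non-classical Qa-1, which presents leader peptides of other class I chains to NKG2 receptors on NK cells. H2-Q4 encodes a Qa family chain, and H2-M3 encodes a chain known for presenting N-formylated peptides. The heavy chain genes lie in the MHC on chromosome 17, and B2m lies on chromosome 2. Heavy chains that find no B2m are largely retained inside the cell, which is why loss of B2m is a known route of escape from T cells. Interferon gamma raises most class I genes through factors that include IRF1 and the class I transactivator NLRC5, which works through a promoter element bound by RFX, CREB/ATF and NF-Y proteins.

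On GRCm38 the H2-K1 gene spans chr17:33996017-34000347 on the minus strand and H2-D1 chr17:35262730-35267499 on the plus strand. H2-Q4 spans chr17:35379617-35385290 (plus), H2-T23 chr17:36029773-36032855 (minus), H2-M3 chr17:37270220-37274484 (plus) and B2m chr2:122147686-122153083 (plus). Promoter sequence is shown for the genes on which the comparison of heavy and light chains turns: both classical heavy chains, the light chain and Qa-1, whose window differs most in the motifs named. Each run is the 250 bases upstream of the RefSeq start on GRCm38.p6, 5′ to 3′ on the gene's own strand. Capitals mark every match, on either strand, to the motifs named after the sequences. The RefSeq starts of H2-D1 and H2-T23 lie inside the longer GENCODE gene spans.

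H2-K1: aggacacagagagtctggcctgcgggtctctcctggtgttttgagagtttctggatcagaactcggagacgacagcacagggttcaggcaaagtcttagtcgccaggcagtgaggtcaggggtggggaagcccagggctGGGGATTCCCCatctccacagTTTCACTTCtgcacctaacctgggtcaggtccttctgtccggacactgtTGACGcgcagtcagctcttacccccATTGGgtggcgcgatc
H2-D1: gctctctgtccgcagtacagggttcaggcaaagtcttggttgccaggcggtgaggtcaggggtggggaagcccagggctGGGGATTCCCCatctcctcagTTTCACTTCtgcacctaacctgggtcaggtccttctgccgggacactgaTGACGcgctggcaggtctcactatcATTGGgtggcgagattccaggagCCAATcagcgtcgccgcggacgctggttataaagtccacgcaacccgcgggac
B2m: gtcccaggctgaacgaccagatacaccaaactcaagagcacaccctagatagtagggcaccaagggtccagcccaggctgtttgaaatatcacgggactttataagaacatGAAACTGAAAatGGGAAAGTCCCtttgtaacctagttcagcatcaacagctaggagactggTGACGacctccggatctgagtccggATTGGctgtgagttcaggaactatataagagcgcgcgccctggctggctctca
H2-T23: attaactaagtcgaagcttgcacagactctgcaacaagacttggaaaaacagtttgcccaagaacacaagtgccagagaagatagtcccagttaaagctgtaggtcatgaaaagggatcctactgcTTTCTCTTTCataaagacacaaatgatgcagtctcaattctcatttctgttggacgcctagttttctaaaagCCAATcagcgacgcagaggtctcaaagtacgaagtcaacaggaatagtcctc

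These windows are chr17:34000348-34000597 for H2-K1, chr17:35262844-35263093 for H2-D1, chr2:122147437-122147686 for B2m and chr17:36032702-36032951 for H2-T23. The interferon-stimulated response element (ISRE) was searched as GAAA, any 2 bases, then GAAA, and had a match in B2m, starting 139 bases before the start, and in H2-T23, starting 124 bases before it. It occurred in 3.04% of 27025 RefSeq promoter windows of the same length. H2-K1, H2-D1, H2-Q4 and H2-M3 had no match to it. These 4 held instead GAAGTGAAA (printed as TTTCACTTC on the gene's strand), which 0.429% of all windows held; this motif was added after the sequences were seen. The NF-kB motif (GGGA, any 4 bases, then CC), held by 17.3% of windows, was matched in every member except H2-T23, with overlapping matches in H2-K1, H2-D1 and B2m. The CREB/ATF core TGACG, held by 17.9% of windows, was likewise matched in every member except H2-T23. CCAAT, the NF-Y motif, was matched in all 6 and in 34.5% of windows. In the 100 bases that run from 25 before the GAAGTGAAA match, 89 were identical between H2-K1 and H2-D1, 86 between H2-K1 and H2-Q4 and 87 between H2-D1 and H2-Q4, against 36 between H2-M3 and each of these. A match is a run of letters, not evidence of binding.

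The deposited values are log2 values after variance stabilisation, and normalised counts were calculated back from them. Estimated depth was 13.4 to 35.0 M fragments per library in LLC1 and 13.7 to 32.6 M in KP. The lines were normalised separately, so levels were compared only within a line. Tests were limited to genes with a group mean 1 log2 unit or more over the table's lowest value, which corresponds to 130.4 (LLC1) or 144.2 (KP) normalised counts. That left 10581 genes of LLC1 and 11193 of KP. All 6 members passed in LLC1 and 5 of 6 in KP, where H2-M3 did not and H2-Q4 passed only through relapse groups. The sort was checked with 7 leukocyte markers, whose summed level was 7.34 to 32.5 CPM (counts scaled to a common library total) over all libraries. Ptprc, which encodes CD45, lay between 6.68 and 219 normalised counts, and the T cell gene Cd3e between 0 and 13.8. Epithelial markers (Epcam, Krt8, Krt18, Cdh1) summed to 3918 to 7232 CPM in KP, where all 4 were tested, and to 196 to 373 in LLC1, where Epcam and Cdh1 were below the filter. In RNA from sorted tumours, fewer cells of a type and less RNA per cell cannot be told apart.

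Among themselves the chains differed widely in level. Per kilobase of the principal transcript, the order in parental LLC1 tumours was B2m (13231 ± 1011 normalised counts per kb, SD, n = 3), H2-D1 (4838 ± 407), H2-K1 (1247 ± 45.8), H2-T23 (686 ± 49.2), H2-Q4 (132 ± 8.75) and H2-M3 (94.3 ± 7.46). In parental KP tumours it was B2m (4590 ± 258), H2-D1 (1050 ± 130), H2-T23 (617 ± 20.95), H2-K1 (509.9 ± 140), H2-Q4 (30.6 ± 16.7) and H2-M3 (20.0 ± 1.79). Neighbours such as H2-T23 and H2-K1 in parental KP were within their spread. Reads of 50 bases can be shared between these genes: 28.8% of the 50-base windows of H2-T23, 24.3% of H2-Q4, 14.3% of H2-D1 and 8.79% of H2-K1 also occur in transcripts of other genes, against 0.576% of H2-M3 and none of B2m. Values of the heavy chains other than H2-M3 are uncertain to that extent.

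**Figure D1:**
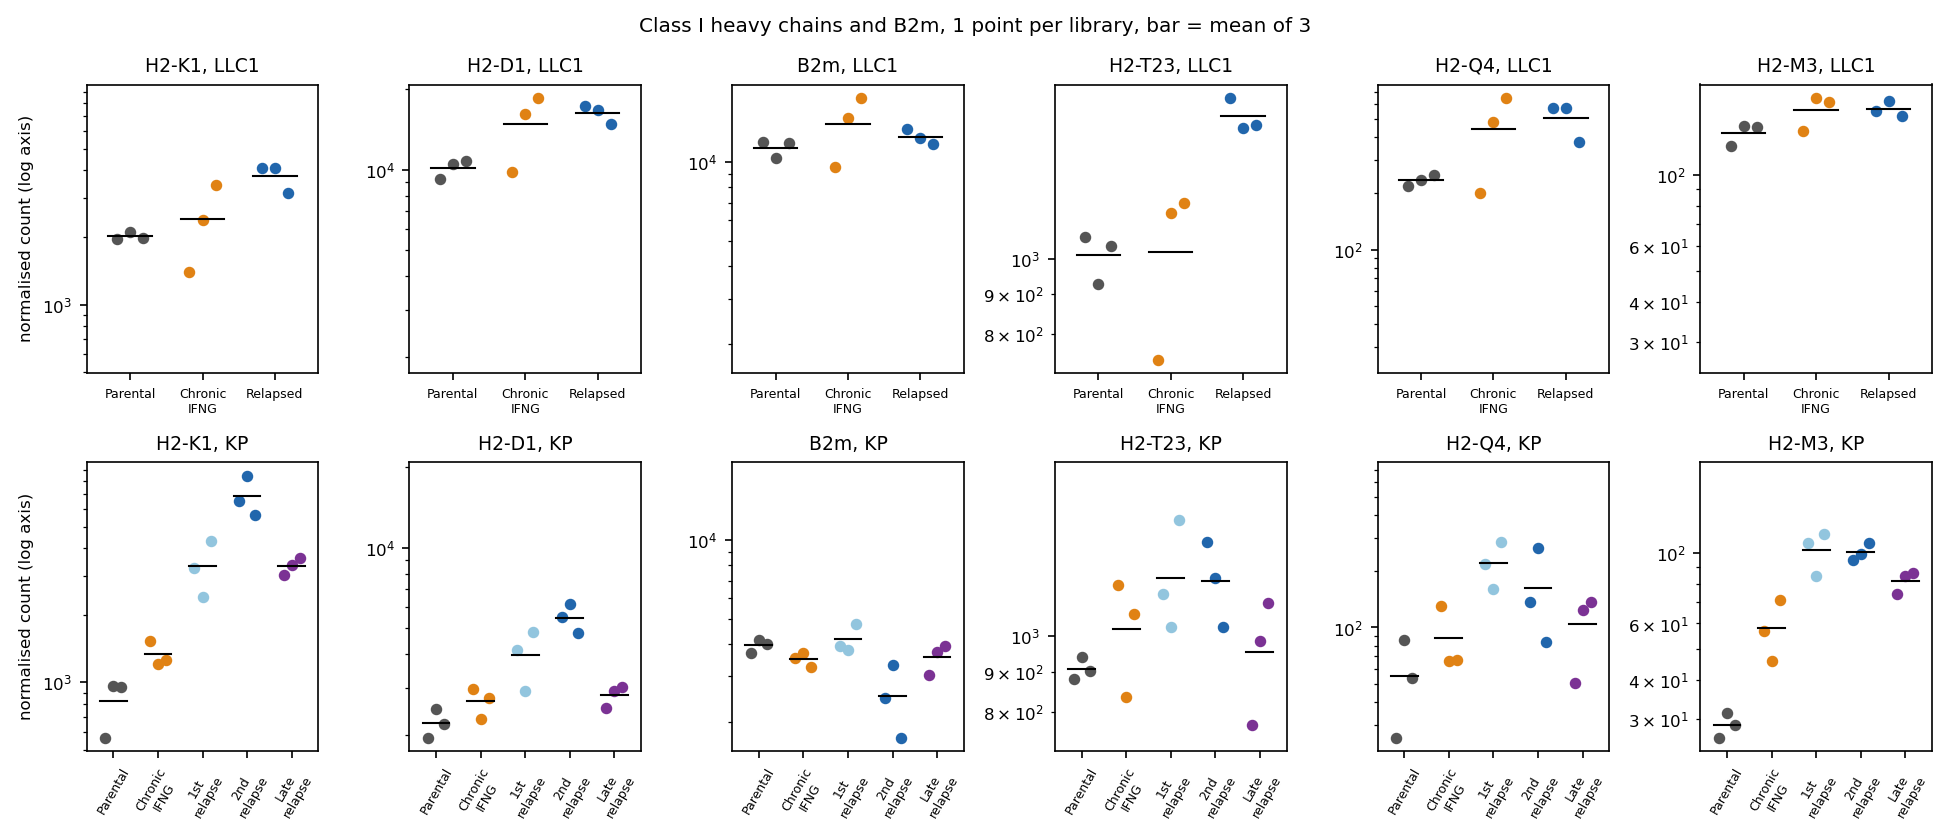
Normalised counts (log axis) of the 6 genes, one panel per gene and line, with 1 point per library and a bar at the mean of 3. H2-K1 climbs from 563 to 962 in parental KP tumours to 5657 to 8464 in the 2nd relapse, while B2m is lowest there (1741 to 3325).

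Of the tested members, H2-K1 had the largest log2 differences from parental tumours on the deposited scale in every derived KP group and in relapsed LLC1 tumours. By fold of mean counts, H2-Q4 rose more in relapsed LLC1 (2.15 against 1.87) and slightly more in the KP 1st relapse (4.06 against 4.03). In parental KP tumours its normalised counts were 563, 962 and 951 in replicates 1 to 3. Chronic IFNG KP tumours had 1537, 1209 and 1262. In the 1st relapse the values were 3275, 2414 and 4294, in the 2nd relapse 6514, 8464 and 5657, and in the late relapse 3017, 3371 and 3626. All libraries of the 4 derived groups lay above all parental ones, and the 1st and late relapse overlapped. The mean was 8.33-fold higher in the 2nd relapse than in parental tumours, a log2 difference of 2.47 (SE 0.17, limma adjusted p = 1.3e-08). It was 4.03-fold higher in the 1st relapse (1.52, SE 0.17, limma adjusted p = 5.6e-06) and 4.04-fold in the late relapse (1.55, SE 0.17, limma adjusted p = 4.2e-06). Only 32 of 11193 tested genes rose more than H2-K1 in the 2nd relapse, 110 in the 1st and 77 in the late relapse. The chronic IFNG difference of 0.49 (SE 0.17) missed the threshold (limma adjusted p = 0.056). It passed at 0.034 without 1st relapse KP replicate 3, at 0.031 without 1st relapse KP replicate 2 and at 0.044 without 2nd relapse KP replicate 2.

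From lowest to highest, the KP groups ran parental, chronic IFNG, 1st relapse, late relapse and 2nd relapse for H2-K1. The 1st relapse exceeded chronic IFNG tumours by 1.03 (limma adjusted p = 0.00073), and the 2nd relapse exceeded the late relapse (the difference of late minus 2nd was -0.92, limma adjusted p = 0.00041). The late and 1st relapse differed by 0.03 (limma adjusted p = 0.90), less than the spread between replicates.

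In LLC1, H2-K1 counts were 1973, 2104 and 1979 in parental tumours. Chronic IFNG tumours had 1395, 2405 and 3446, and relapsed tumours 4106, 4076 and 3171. Relapsed tumours lay wholly above parental ones, while the chronic IFNG libraries spread over both sides of them. The relapsed mean was 1.87-fold the parental mean (log2 difference 0.76, SE 0.21, limma adjusted p = 0.011). Chronic IFNG tumours differed by 0.15 (limma adjusted p = 0.64). Relapsed exceeded chronic IFNG tumours by 0.62 (limma adjusted p = 0.027). That call was lost without Chronic IFNG LLC1 replicate 1 (0.33, 0.052), Chronic IFNG LLC1 replicate 2 (0.65, 0.053), Relapsed LLC1 replicate 1 (0.56, 0.083) or Relapsed LLC1 replicate 2 (0.56, 0.080), where the second value is limma's adjusted p.

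H2-D1 followed the same order of highest and lowest group in KP with smaller differences. Parental tumours had 1944, 2491 and 2186 normalised counts, chronic IFNG tumours 2966, 2296 and 2737, and the 1st relapse 4133, 2912 and 4841. The 2nd relapse had 5508, 6148 and 4789, and the late relapse 2506, 2908 and 3024. The 1st, 2nd and late relapse lay above all parental libraries. The log2 difference was 0.70 in the 1st relapse (SE 0.14, limma adjusted p = 0.00084) and 1.13 in the 2nd (SE 0.14, limma adjusted p = 4.8e-06), a 2.48-fold rise. The late relapse difference of 0.29 was not called (limma adjusted p = 0.087, and 0.029 without 1st relapse KP replicate 2), nor was chronic IFNG at 0.22 (limma adjusted p = 0.28).

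In order, parental, chronic IFNG and late relapse tumours did not differ between neighbours for H2-D1. The late relapse lay below the 1st by 0.40 (late minus 1st -0.40, limma adjusted p = 0.026), a call lost without 1st relapse KP replicate 1 (0.079), 1st relapse KP replicate 3 (0.136) or Late relapse KP replicate 1 (0.099). The 2nd relapse exceeded the 1st by 0.44 (limma adjusted p = 0.013), a call lost without 1st relapse KP replicate 2 (0.26, limma adjusted p = 0.074) or 2nd relapse KP replicate 2 (0.36, limma adjusted p = 0.061) and under quantile normalisation (0.23, limma adjusted p = 0.16).

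In LLC1, H2-D1 had 9202, 10483 and 10824 counts in parental tumours, 9831, 16087 and 18598 in chronic IFNG tumours and 17283, 16668 and 14846 in relapsed tumours. Relapsed tumours again lay wholly above parental ones, at 1.60-fold (log2 difference 0.65, SE 0.18, limma adjusted p = 0.013). Relapsed and chronic IFNG tumours overlapped (0.17, limma adjusted p = 0.45). The chronic IFNG difference from parental tumours was 0.48 (limma adjusted p = 0.074).

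The balance of the classical chains also differed between groups. Per kb, H2-K1 was 48.1% ± 9.60 of H2-D1 in parental KP tumours (SD, n = 3) and 65.2% ± 4.64 in chronic IFNG tumours. It was 109% ± 6.19 in the 1st relapse, 162% ± 14.6 in the 2nd and 154% ± 3.17 in the late relapse. Every parental and chronic IFNG library lay below 100% (37.6% to 68.4%) and every relapse library above it (103% to 179%). In LLC1 the values were 25.9% ± 2.06, 20.6% ± 3.01 and 30.1% ± 2.11 in parental, chronic IFNG and relapsed tumours, so H2-D1 led in all 9 libraries. These ratios were described after the levels had been seen and were not tested.

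Qa-1 (H2-T23) differed less. KP counts were 881, 942 and 903 in parental tumours, 1163, 838 and 1067 in chronic IFNG tumours, 1131, 1027 and 1409 in the 1st relapse, 1320, 1189 and 1029 in the 2nd relapse and 771, 987 and 1104 in the late relapse. The 1st and 2nd relapse lay above parental libraries by 0.26 (SE 0.10, limma adjusted p = 0.048) and 0.25 (SE 0.10, limma adjusted p = 0.042), and no neighbouring groups in order of level differed. Both calls rested near the threshold. With no filter on level the adjusted p was 0.079 for the 1st and 0.067 for the 2nd relapse, under quantile normalisation 0.056 and 0.117, and under median centring 0.075 and 0.079 (limma). On back-calculated counts the 1st relapse gave 0.051. For the 1st relapse the adjusted p rose to 0.057 to 0.216 without any of Parental KP replicates 1, 2 or 3, 1st relapse KP replicates 1 or 3, Chronic IFNG KP replicate 3, 2nd relapse KP replicate 2 or Late relapse KP replicate 2. For the 2nd relapse it rose to 0.050 to 0.158 without any of Parental KP replicates 1, 2 or 3, 2nd relapse KP replicates 1 or 2, or Late relapse KP replicate 2.

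In LLC1, H2-T23 counts were 1065, 928 and 1038 in parental tumours, 741, 1142 and 1178 in chronic IFNG tumours and 1606, 1471 and 1482 in relapsed tumours. Relapsed tumours lay above every other LLC1 library. They exceeded parental tumours 1.504-fold (log2 difference 0.43, SE 0.10, limma adjusted p = 0.0062) and chronic IFNG tumours by 0.44 (limma adjusted p = 0.0049).

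H2-Q4 and H2-M3 were the lowest chains, and deposited values understate folds at such counts. In KP, H2-Q4 had 25.6, 85.6 and 53.5 counts in parental tumours and 131, 66.0 and 66.7 in chronic IFNG tumours. The 1st relapse had 219, 161 and 289, the 2nd relapse 137, 266 and 83.3, and the late relapse 50.4, 124 and 138. The 1st relapse lay above every parental library (4.06-fold, log2 difference 0.61, SE 0.14, limma adjusted p = 0.0028). H2-Q4 entered the KP tests only through the relapse groups in which it was high, so these calls are descriptions; with no filter on level the adjusted p was 0.0025 in the 1st and 0.024 in the 2nd relapse (limma). The 2nd relapse overlapped parental tumours (0.42, limma adjusted p = 0.019), a call lost without Parental KP replicate 1 (0.33, limma adjusted p = 0.086) or 2nd relapse KP replicate 2 (0.26, limma adjusted p = 0.11). In LLC1, H2-Q4 had 220.0, 237 and 251 counts in parental tumours, 199.8, 483 and 651 in chronic IFNG tumours and 573, 575 and 375 in relapsed tumours. The relapsed mean was 2.15-fold the parental mean (0.54, limma adjusted p = 0.028). Adjusted p was 0.054 to 0.091 without any single parental library or without Relapsed LLC1 replicate 1 or 2.

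H2-M3 fell below the filter on level in KP. Its counts were 26.2, 31.4 and 28.9 in parental tumours and 56.7, 45.8 and 71.3 in chronic IFNG tumours. They were 107, 84.3 and 114 in the 1st relapse, 94.7, 99.03 and 107 in the 2nd and 74.3, 84.8 and 86.4 in the late relapse. All derived libraries lay above all parental ones, with means 2.01-fold to 3.54-fold higher. With no filter, limma gave log2 differences of 0.18, 0.39, 0.38 and 0.31 in chronic IFNG, 1st, 2nd and late relapse (adjusted p = 0.024, 7.9e-06, 4.2e-06 and 1.0e-04). In LLC1 it had 123, 143 and 141 counts in parental tumours, 137, 175 and 169 in chronic IFNG tumours and 159, 171 and 153 in relapsed tumours. The relapsed difference was 0.09 (limma adjusted p = 0.19).

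In KP the light chain did not rise with H2-K1 and H2-D1. B2m counts in KP were 3702, 4135 and 4005 in parental tumours, 3542, 3696 and 3256 in chronic IFNG tumours and 3939, 3803 and 4758 in the 1st relapse. The 2nd relapse had 2487, 3325 and 1741, and the late relapse 3042, 3729 and 3933. The 2nd relapse lay below every parental library, and its mean was 1.57-fold lower (log2 difference -0.59, SE 0.14, limma adjusted p = 0.0024). The other derived KP groups gave -0.15, 0.06 and -0.13 for chronic IFNG, 1st and late relapse (limma adjusted p = 0.50, 0.73 and 0.45). From the lowest, the order was 2nd relapse, chronic IFNG, late relapse, parental and 1st relapse. The 2nd relapse was below chronic IFNG tumours (-0.44, limma adjusted p = 0.017), a call lost without 2nd relapse KP replicate 3 (-0.24, limma adjusted p = 0.093), and no other neighbours differed. In LLC1, B2m had 11928, 10376 and 11831 counts in parental tumours, 9592, 14745 and 17697 in chronic IFNG tumours and 13387, 12427 and 11743 in relapsed tumours. All 3 groups overlapped. Differences from parental tumours were 0.25 (limma adjusted p = 0.31) and 0.13 (limma adjusted p = 0.54).

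Counted together, 4 of 6 members rose in relapsed LLC1 tumours (all but B2m and H2-M3) and none fell, where 25.9% of all tested genes rose (45.4% called in either direction). In KP the counts leave out H2-Q4, because of how it passed the filter. Of the other 4 tested members, 3 rose and none fell in the 1st relapse (background 25.4% higher, 50.9% either way). In the 2nd relapse 3 rose and B2m fell (36.8% of tested genes rose and 29% fell, 65.8% either way). In the late relapse H2-K1 alone rose (31% higher, 56.9% either way). With no filter, 4, 4 and 2 of all 6 members rose in the 1st, 2nd and late relapse. There too B2m fell in the 2nd relapse (-0.59, limma adjusted p = 0.0024). The shares above are those of the filtered genes, so these counts stand without a background. No tested member passed limma's threshold in chronic IFNG tumours of either line, where 24.5% of LLC1 genes and 21.8% of KP genes were called. At an unadjusted p under 0.05, 2 members passed in chronic IFNG LLC1 (H2-D1 and H2-Q4) and 1 in chronic IFNG KP (H2-K1). The share of all genes passing that looser threshold is not given. The members' median log2 difference was 0.20 and 0.49 in chronic IFNG and relapsed LLC1, against -0.02 and 0.03 over all tested genes. In KP the median over the 4 was 0.17, 0.48, 0.69 and 0.17 in chronic IFNG, 1st, 2nd and late relapse, against -0.01, -0.01, 0.03 and 0.01. Libraries of 5 members (all but B2m) lay wholly above the parental ones in relapsed LLC1 (33.6% of tested genes did so) and of none in chronic IFNG LLC1 (15%). In KP, among the 4 tested members other than H2-Q4, the same held for H2-K1 in chronic IFNG tumours (19.9%). It held for H2-K1, H2-D1 and H2-T23 in the 1st relapse (29.6%) and the 2nd (40.1%), and for H2-K1 and H2-D1 in the late relapse (33.6%). It also held for H2-M3 in each derived KP group and for H2-Q4 in the 1st relapse. The shares are those of tested genes, so they are not set against H2-M3, which was not tested, or H2-Q4. All 4 KP comparisons share the parental libraries, as do both LLC1 comparisons.

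The chronic IFNG LLC1 result changed when 1 library was left out. Chronic IFNG LLC1 replicate 1 had the lowest count of its group for all 6 members, and replicate 3 the highest for all but H2-M3. Leaving out the lowest library of a group raises its mean, so the calls that follow do not mark replicate 1 as the odd library. Without it 4 members were called higher than in parental tumours by limma: H2-D1 by 0.74, H2-Q4 by 0.64, B2m by 0.49 and H2-K1 by 0.43, with adjusted p = 0.0011, 0.0042, 0.0067 and 0.041. Over all fits that left out a library, 1556 to 2758 genes were called in this comparison, against 2596 of 10581 in the full fit. The share of genes called without this library alone is not given. Between derived groups, 2 of 6 members rose from chronic IFNG to relapsed LLC1 tumours (background 52% called in either direction). In KP, again without H2-Q4, the 1st relapse against chronic IFNG gave 2 calls among 4 members (background 31%), the 2nd against chronic IFNG 3 (64.3%) and the late relapse against chronic IFNG 1 (50.4%). The 2nd relapse against the 1st gave 3 (62.2%), the late relapse against the 1st 1 (48.1%) and the late against the 2nd 3 (54.9%).

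**Figure D2:**
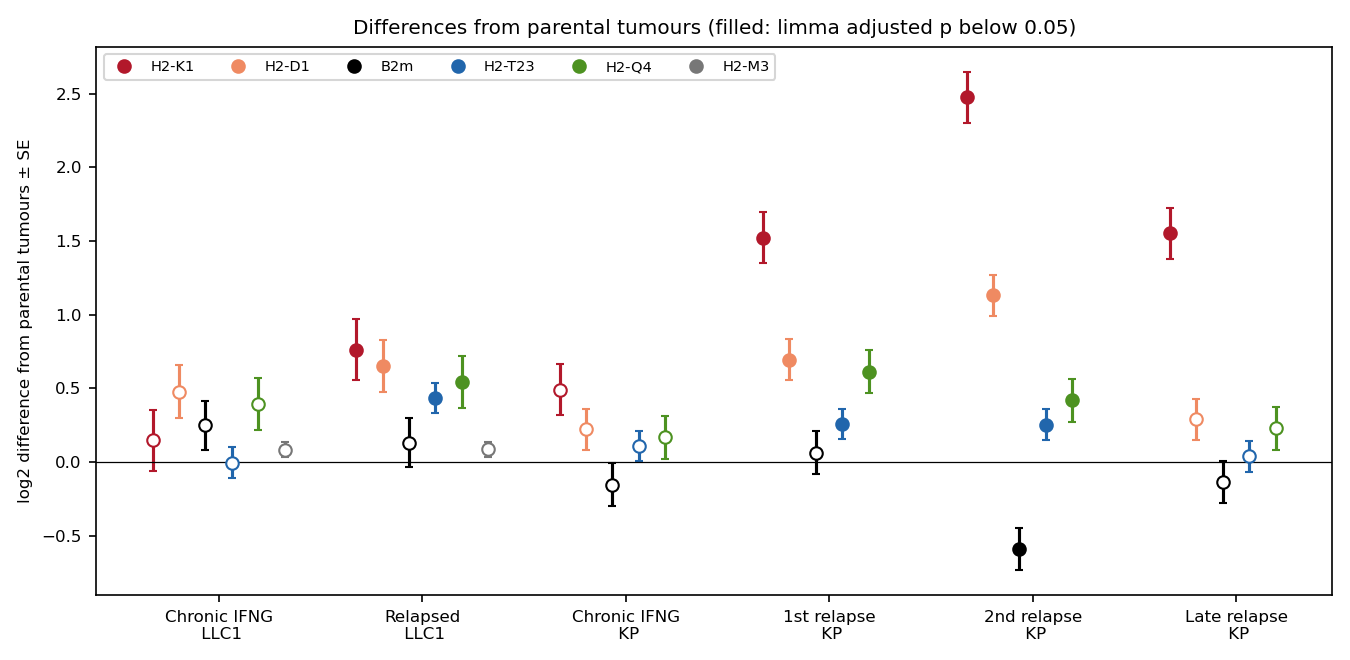
Log2 difference from parental tumours of the same line (vertical axis, limma estimate ± SE) for each member and derived group, filled where the adjusted p was below 0.05. H2-M3 is absent in KP because it fell below the filter; B2m is the only filled point below 0, at -0.59 in the 2nd relapse.

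Setting each heavy chain against B2m in the same library put these differences on one scale. The H2-K1 count in KP was 15.2%, 23.3% and 23.7% of the B2m count in parental replicates 1 to 3. It was 43.4%, 32.7% and 38.7% in chronic IFNG tumours, 83.1%, 63.5% and 90.2% in the 1st relapse and 99.2%, 90.4% and 92.2% in the late relapse. The 2nd relapse stood apart at 262%, 255% and 325%. No groups overlapped, although the highest 1st relapse library lay just below the lowest of the late relapse. For H2-D1 the mean was 55.8% ± 3.997 in parental KP tumours, 76.6% ± 12.6 in chronic IFNG, 94.4% ± 15.5 in the 1st relapse, 227% ± 45.3 in the 2nd and 79.1% ± 2.91 in the late relapse. For H2-T23 it was 23.04% ± 0.672, 29.4% ± 5.85, 28.4% ± 1.32, 49.3% ± 12.1 and 26.6% ± 1.38 in the same order.

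Summed per kb, the 5 heavy chains came to 48.4% ± 3.83 of B2m in parental KP tumours and 71.1% ± 11.7 in chronic IFNG tumours. They came to 101% ± 14.8 in the 1st relapse, 101% ± 2.63 in the late relapse and 276% ± 45.0 in the 2nd relapse, where every library was at or above 237%. In LLC1 the sums were 53.2% ± 6.09, 58.6% ± 2.22 and 79.0% ± 3.25 in parental, chronic IFNG and relapsed tumours. All 9 LLC1 libraries thus held more B2m than heavy chain RNA per kb.

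**Figure D3:**
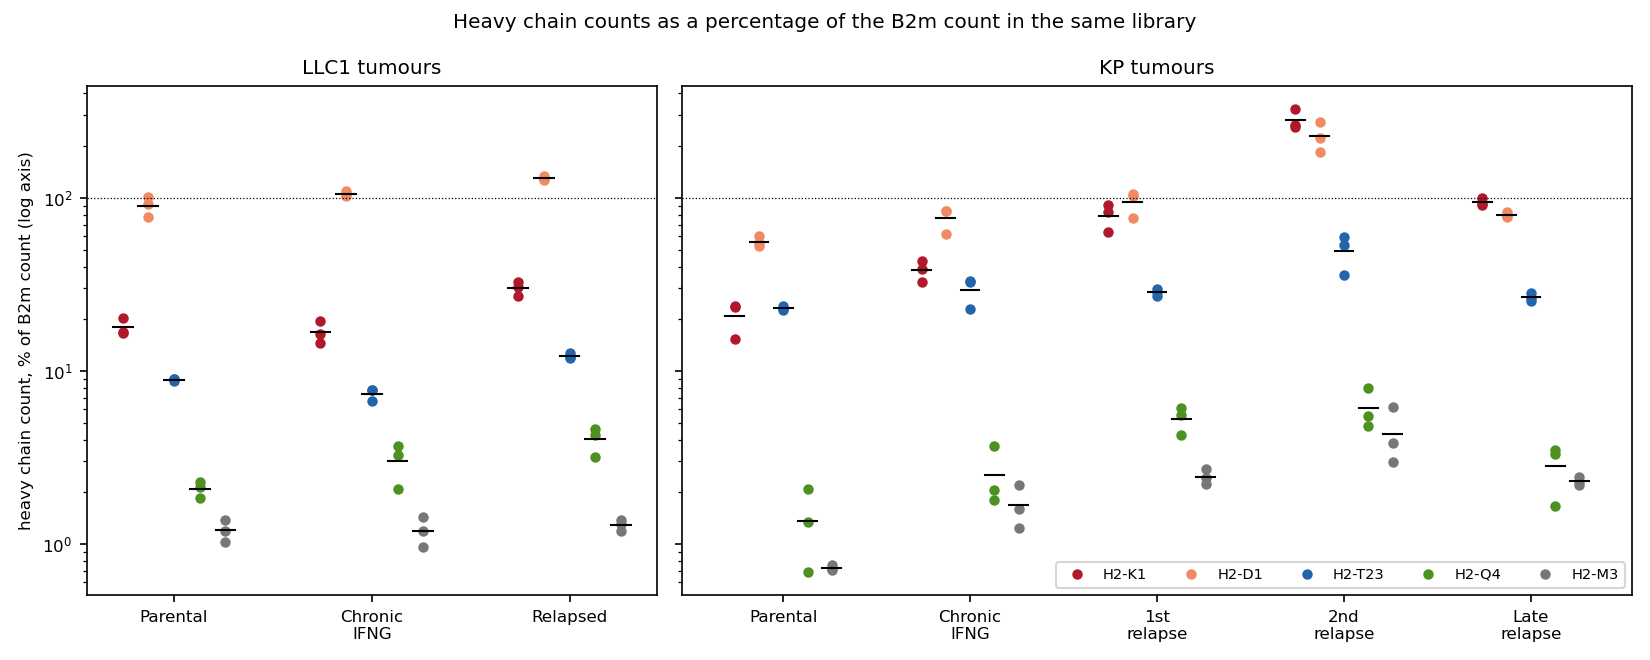
Heavy chain count as a percentage of the B2m count of the same library (log axis), 1 point per library and a bar at the mean of 3; the dotted line marks equal counts. H2-K1 and H2-D1 pass that line in all 3 libraries of the 2nd relapse, with means of 280% and 227%.

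After subtraction of B2m, H2-K1 rose in all 4 derived KP groups. The log2 differences were 0.65 in chronic IFNG, 1.46 in the 1st, 3.06 in the 2nd and 1.69 in the late relapse. Their adjusted p, from limma estimates with each gene's own spread, were 0.030, 0.00063, 2.4e-06 and 0.00013. Every gene's value carries the same B2m value here, and the prior degrees of freedom of the pooled spread came out infinite, so each gene's own spread was used. H2-D1 rose relative to B2m in the 1st relapse by 0.63 (own-spread adjusted p = 0.024) and in the 2nd by 1.72 (2.1e-05). H2-T23 rose by 0.84 in the 2nd (0.0011). H2-Q4 was 0.55, 1.01 and 0.36 higher in the 1st, 2nd and late relapse, given without a test because of how it passed the filter. The background matters here: relative to B2m, 71.8% of all genes rose in the 2nd relapse, so a rise of all 3 of H2-K1, H2-D1 and H2-T23 there is read against that share. Their median was 1.72. The background was 3.45%, 4.9% and 7.12% in chronic IFNG, 1st and late relapse, where 1, 2 and 1 of these 3 rose. With the spread pooled, the counts were 1, 2, 3 and 1 in chronic IFNG, 1st, 2nd and late relapse (background 5.93%, 6.94%, 75.6% and 12.1%). The pooled call of H2-D1 in the 1st relapse (0.011) was lost without Parental KP replicates 1 or 3 or 1st relapse KP replicates 1 or 3 (0.069 to 0.112). Without Parental KP replicate 1, Chronic IFNG KP replicate 1 or Chronic IFNG KP replicate 3, the pooled adjusted p for H2-K1 in chronic IFNG tumours went from 0.014 to between 0.099 and 0.223.

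In LLC1 no heavy chain was called relative to B2m against parental tumours, where 0.0284% of genes rose in relapsed and none in chronic IFNG tumours with own spread. With pooled spread these shares were 0.605% and 0.265%, and again no heavy chain was called. At an unadjusted own-spread p under 0.05, 4 of 5 heavy chains passed in relapsed tumours and 2 of 5 in chronic IFNG tumours. The share of all genes passing that looser threshold is not given, so no conclusion is drawn from these counts. H2-K1 was 0.63 higher and H2-D1 0.52 higher in relapsed tumours (own-spread adjusted p = 0.13 and 0.15). H2-K1 as a share of B2m was 16.5%, 20.3% and 16.7% in parental tumours, 14.5%, 16.3% and 19.5% in chronic IFNG tumours and 30.7%, 32.8% and 27.0% in relapsed tumours, which lay above the other 2 groups. H2-D1 averaged 89.9% ± 12.02, 106% ± 3.33 and 130% ± 3.91. A fit of relapsed and parental tumours only called 4 heavy chains. The shares of genes above belong to the fit of all groups, so that count stands without a background.

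An exact permutation test of the same quantity over all groups of a line needs no spread from other genes. It took every heavy chain, whether or not it passed the filter. Each value carries B2m's own differences, such as the -0.59 of B2m in the KP 2nd relapse. Relative to B2m, 71.8% of all genes rose there (own spread). The test was not run on other genes, so its p-values stand without a background and do not tell a heavy chain's change from B2m's. On its own values H2-T23 was not called over the KP groups (limma F adjusted p = 0.081). In KP H2-Q4 had passed only through relapse groups and H2-M3 had not passed, so their KP values are descriptions. In KP the exact permutation p was 7.1e-07 for H2-K1 (adjusted over 10 tests 7.1e-06), the smallest that its 1401400 arrangements can give. It was 9.2e-05 for H2-D1, 1.9e-05 for H2-Q4, 0.00029 for H2-M3 and 0.0014 for H2-T23 (exact permutation, adjusted 0.00031, 9.3e-05, 0.00072 and 0.0029). In LLC1 it was 0.0036, the smallest that 280 arrangements can give, for H2-D1, H2-T23 and H2-Q4, 0.018 for H2-K1 and 0.71 for H2-M3 (exact permutation, adjusted 0.0045, 0.020 and 0.71). H2-M3 and H2-Q4 are compressed on the deposited scale, so B2m's own differences weigh more in their values. They weigh most for H2-M3 in KP, whose within-group SD rose from 0.05 to 0.21 log2 units.

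Subtracting B2m narrowed the spread within groups for most heavy chains. In LLC1 the within-group SD of H2-K1 fell from 0.33 to 0.13 log2 units once B2m was subtracted, that of H2-D1 from 0.28 to 0.11, of H2-Q4 from 0.28 to 0.10 and of H2-T23 from 0.16 to 0.12. In KP it fell from 0.25 to 0.17 for H2-K1, from 0.20 to 0.17 for H2-D1 and from 0.20 to 0.11 for H2-Q4, and rose for H2-T23 (0.14 to 0.18). For H2-M3 it rose in both lines. Over 15 KP libraries H2-K1 and H2-D1 had a Pearson r of 0.90 with each other and of -0.42 and -0.37 with B2m. Over 9 LLC1 libraries these were 0.87, 0.60 and 0.77. Libraries of a group are not independent points, so these are descriptions.

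Between lines, only differences from parental tumours can be set side by side. Relapsed LLC1 gave 0.76 for H2-K1, 0.65 for H2-D1, 0.43 for H2-T23, 0.54 for H2-Q4 and 0.13 for B2m. The KP 1st relapse gave 1.52, 0.70, 0.26, 0.61 and 0.06 for the same genes, the 2nd relapse 2.47, 1.13, 0.25, 0.42 and -0.59, and the late relapse 1.55, 0.29, 0.04, 0.23 and -0.13. These are differences on the deposited scale, which compresses low counts, so a chain at unlike levels in the 2 lines is compressed to unlike extents. H2-Q4 had parental means of 236 counts in LLC1 and 54.9 in KP. Its 0.54 in relapsed LLC1 and 0.61 in the KP 1st relapse stood for 2.15-fold and 4.06-fold. The difference between lines was not tested. Over all groups of a line, limma's F test called H2-K1, H2-D1, H2-T23 and H2-Q4 in LLC1 (adjusted p = 0.017, 0.021, 0.0054 and 0.048, background 60.7%). In KP it called H2-K1, H2-D1, B2m and H2-Q4 (adjusted p = 6.6e-08, 2.2e-05, 0.0057 and 0.0099, background 87%) and not H2-T23 (0.081); H2-Q4 had passed the filter there only through relapse groups.

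The genes whose pattern was most like each member's were sought among 9338 genes by the smaller of the Pearson correlations over 9 LLC1 and over 15 KP libraries. For H2-K1 they were Slfn9 (0.88 and 0.88), Neu1 (0.87 and 0.92) and Enah (0.85 and 0.86). For H2-D1 they were Kcnn4 (0.90 and 0.95), the RNA sensor Ifih1 (0.88 and 0.85) and the non-classical class I gene H2-T22 (0.85 and 0.88). For B2m, the most alike were Acot9 (0.72 and 0.71), Tmem115 (0.70 and 0.85) and the macrophage growth factor Csf1 (0.70 and 0.75), lower than for any heavy chain. H2-T23 was most like Slc27a1, Bag1 and Etv3, H2-Q4 most like the immunoproteasome gene Psmb8 (0.89 and 0.88), Ifih1 and Rhobtb1, and H2-M3 most like Nubp1, Ifih1 and Kcnn4. All points share libraries and depth, and the genes were picked for the correlation.

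Genes that make and load class I peptides were counted next. The share of all tested genes called in either direction was 24.5% and 45.4% in chronic IFNG and relapsed LLC1 and 21.8%, 50.9%, 65.8% and 56.9% in chronic IFNG, 1st, 2nd and late relapse KP, and each list count from here on stands beside those shares. The lists hold genes that passed the filter only through groups where they were high. In KP, Tap1, Tap2 and Psmb8 passed only through the 1st relapse. The counts include these genes, and their calls in KP are descriptions. Of 8 peptide transport and loading genes, 4 rose and none fell in chronic IFNG LLC1 tumours, 1 rose and 2 fell in relapsed LLC1, none passed in chronic IFNG KP, 6 rose in the 1st relapse, 2 rose and 1 fell in the 2nd and 2 fell in the late relapse. The list's median was 0.22, 0.07, 0.07, 0.24, 0.01 and -0.02 in that order. Tap1, a subunit of the peptide transporter, had 25.4 to 68.7 counts in parental KP tumours, 162 to 392 in the 1st relapse (limma log2 difference 0.77, adjusted p = 0.00077), 51.4 to 228 in the 2nd (0.38, adjusted p = 0.039) and 30.5 to 71.3 in the late relapse (not called). Tapbp (tapasin, which bridges the transporter and the heavy chain) rose by 0.59 in chronic IFNG LLC1 tumours (limma adjusted p = 0.0042) and fell by 0.38 in the late relapse (limma adjusted p = 0.010). The late relapse thus held 4.04-fold more H2-K1 than parental tumours while its Tap1 counts overlapped theirs.

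Of 4 tested immunoproteasome genes, 3 rose in chronic IFNG LLC1, 1 rose and 1 fell in relapsed LLC1, and 0, 2, 1 and 0 rose in chronic IFNG, 1st, 2nd and late relapse KP. Their medians were 0.31, 0.03, -0.03, 0.17, 0.15 and -0.04. Psmb8, a catalytic subunit, had 10.9 to 69.4 counts in parental KP tumours, 148 to 248.5 in the 1st relapse (limma log2 difference 0.58, adjusted p = 0.0011) and 38.3 to 57.8 in the late relapse. Of 13 class I transcription factors, 12 were tested in KP. They were higher and lower in 2 and 1 in chronic IFNG LLC1, 2 and 2 in relapsed LLC1, 0 and 0 in chronic IFNG KP, 1 and 4 in the 1st, 2 and 4 in the 2nd and 0 and 5 in the late relapse. The list medians were 0.01, 0.01, -0.02, -0.05, 0.00 and -0.01.

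The transactivator Nlrc5 rose by 0.80 in chronic IFNG LLC1 tumours (limma adjusted p = 0.013). In KP it was below the filter, at 22.2 to 100.3 counts in parental tumours, 60.1 to 205 in the 1st, 41.5 to 86.5 in the 2nd and 25.4 to 112 in the late relapse, all overlapping. Nfya, the DNA-binding subunit of NF-Y, fell by 0.38, 0.39 and 0.64 in the 1st, 2nd and late relapse (limma adjusted p = 0.00078, 0.00035 and 6.4e-06).

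**Figure D4:**
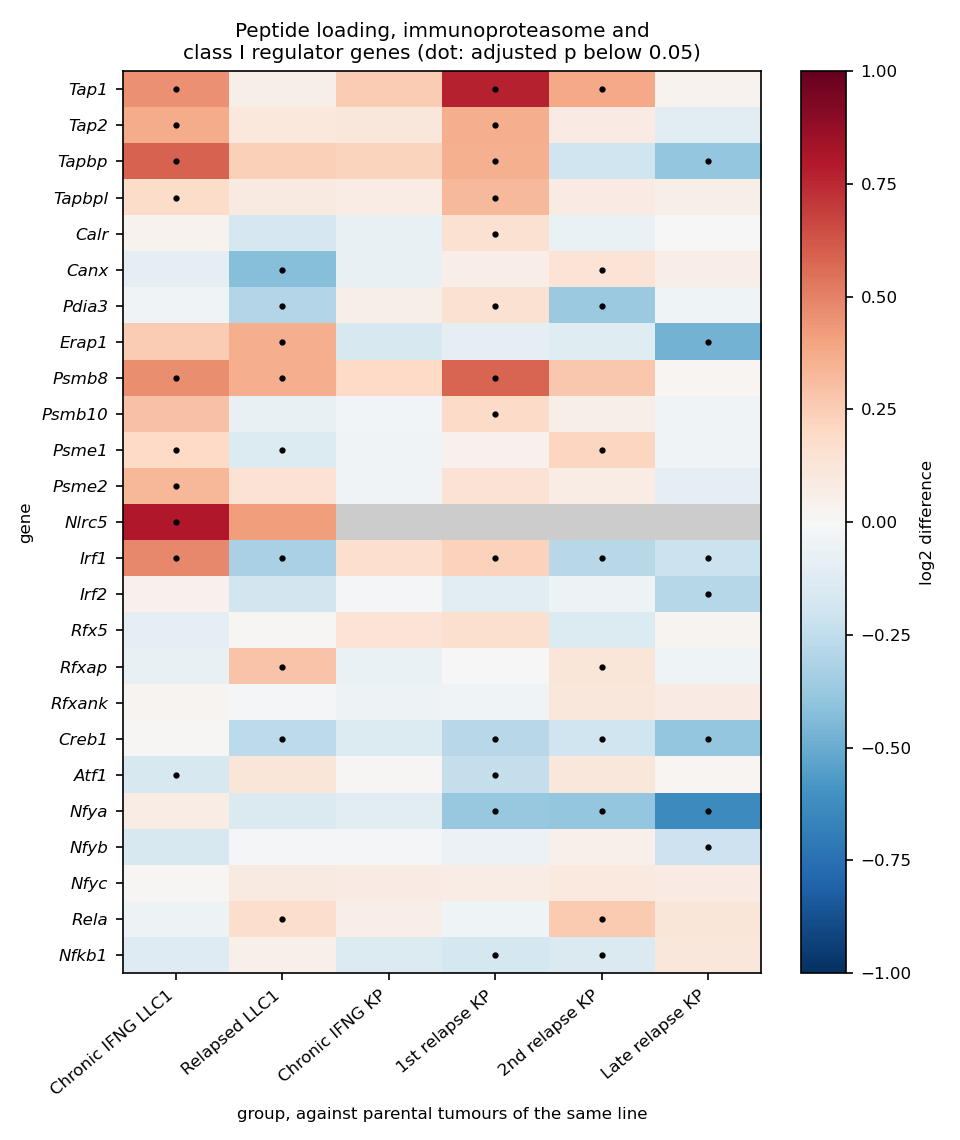
Log2 difference from parental tumours of the same line (colour, -1 to 1) for peptide loading, immunoproteasome and class I transcription factor genes (rows) in the 6 derived groups (columns); a dot marks an adjusted p below 0.05 and grey an untested gene. The 1st relapse has called rises in 6 of 8 loading genes and the late relapse has none. The 6 include Tap1 and Tap2, which passed the filter only through the 1st relapse.

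Other partners of B2m were few. Of 20 further heavy chain genes listed, 13 were in the LLC1 table and 15 in the KP table, and 1 and 2 were tested. Of these, H2-T22 rose in chronic IFNG LLC1 tumours and in the 1st and 2nd relapse of KP. H2-Q10, which encodes a secreted class I chain, had 301 to 447 counts in parental KP tumours and 15.8 to 43.9 in every derived KP library. It shares sequence with other class I genes, so its counts are uncertain. Its log2 difference was -0.97 to -1.16 in the 4 derived groups, called in each (limma adjusted p = 1.7e-06 in chronic IFNG, the largest of the 4). Fcgrt, the heavy chain of the neonatal Fc receptor, had 74.7 to 96.5 counts in parental KP tumours and 145 to 463 in derived ones, with called rises of 0.63, 0.87, 0.78 and 0.52 in chronic IFNG, 1st, 2nd and late relapse (limma adjusted p = 0.00045, 8.4e-06, 1.0e-05 and 0.00065). Hfe, an iron-regulating class I-like chain, rose in LLC1 by 0.30 in chronic IFNG and 0.52 in relapsed tumours (limma adjusted p = 0.013 and 0.00023). Fcgrt in KP and Hfe in LLC1 passed the filter only through derived groups, and H2-Q10 only through parental KP tumours. The calls of these genes are therefore descriptions.

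Of 4 Polycomb repressive complex 2 genes, which are known to silence class I genes in some tumours, 1 rose and 2 fell in chronic IFNG LLC1, 1 fell in relapsed LLC1, none passed in chronic IFNG KP or the 1st relapse, 2 rose in the 2nd and 1 rose in the late relapse. Of 7 MHC class II genes, none was tested in LLC1 and 2 in KP. Cd74, the invariant chain, rose by 0.58 in the 1st relapse (limma adjusted p = 0.018) and had 16.2 to 63.1 counts in the 2nd relapse against 102 to 410 in parental tumours (-0.69, limma adjusted p = 0.0044). H2-DMb1, a peptide exchange chain, rose by 0.45, 0.78 and 0.30 in chronic IFNG, 1st and late relapse KP (limma adjusted p = 0.0024, 7.9e-06 and 0.012). H2-DMb1 passed the filter only through the 1st relapse, so its calls are descriptions.

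Markers of other cells moved with some of these results. In KP the 6 fibroblast markers summed to 157 to 203 CPM in parental tumours, 146 to 245 in chronic IFNG, 454 to 652 in the 1st relapse, 26.4 to 35.9 in the 2nd and 127 to 369 in the late relapse. All 6 were tested, and 5 rose in the 1st relapse and all 6 fell in the 2nd, the group with the highest H2-K1 and lowest B2m. The 7 leukocyte markers summed to 7.34 to 9.43 in the 2nd relapse against 11.6 to 27.4 in parental tumours, and the class II genes to 3.58 to 7.89 against 13.6 to 45.4. Epithelial markers summed to 6608 to 7232 in the 2nd relapse and 3918 to 4022 in parental tumours. In LLC1, fibroblast markers summed to 5044 to 7401 in chronic IFNG tumours, 2510 to 3206 in parental and 2172 to 2354 in relapsed tumours, and leukocyte markers to 12.6 to 32.5 in relapsed against 10.104 to 11.99 in parental tumours. Of the 2 leukocyte markers tested in LLC1, Lyz2 rose 7.51-fold in relapsed tumours (limma adjusted p = 0.00037) and Cd68 fell to 0.651-fold (limma adjusted p = 0.043). Erythroid markers summed to 2.28 to 23.7 in relapsed and 0.257 to 0.504 in parental LLC1 tumours. The hemoglobin gene Hbb-bs, the 1 tested, went from a mean of 6.91 to 214 counts (limma log2 difference 0.91, adjusted p = 0.0062). In LLC1, Hbb-bs and Lyz2 passed the filter only through relapsed tumours and Cd68 only through parental ones. The fibroblast marker Lum passed in KP only through the 1st relapse. Calls of these genes are descriptions.

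Pericyte markers summed to 30.02 to 36.0 in relapsed and 17.5 to 19.7 in parental LLC1 tumours, where Pdgfrb rose 1.79-fold (limma adjusted p = 0.0015). In KP, Cspg4 rose 7.17-fold in the 2nd relapse (limma adjusted p = 7.9e-07) while Pdgfrb fell to 0.381-fold (limma adjusted p = 0.016), and both rose in the 1st relapse. Cspg4 passed the filter in KP only through the 2nd relapse, so its calls are descriptions. Endothelial markers in LLC1 summed to 36.4 to 46.4 in parental, 61.0 to 63.7 in chronic IFNG and 28.0 to 31.5 in relapsed tumours. Of these Eng was tested, and it rose 1.45-fold in chronic IFNG tumours (limma adjusted p = 0.0038) and fell to 0.70-fold in relapsed tumours (limma adjusted p = 0.0030). The part of any of these markers in the class I differences was not tested.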

How the data were processed

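RNA of 24 libraries (live CD45-negative cells, stranded total RNA kit, paired reads of 50 bases, per the labels' protocols) was analysed in 2 tables, 9 LLC1 and 15 KP libraries. Salmon 1.8.0, cutadapt 2.9, DESeq2 1.34.0 and GRCm38/mm10 appear in the submitters' processing notes, with no role given. The authors deposited variance-stabilised log2 values, a unit read from the tables' titles and ranges. Symbols came from GENCODE vM21, which left 70 of 31618 LLC1 and 85 of 36040 KP identifiers unmatched.

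Normalised counts were calculated back by taking the lowest value (8.03 in LLC1, 8.17 in KP) as a count of 0. In each library 72.9% to 79.1% of low values then lay within 0.15 of a whole read, against 30% by chance. The median chi-square between replicates was 1.53 to 3.29 over 24 pairs, against 0.455 from counting alone, so no libraries were merged.

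Group differences came from limma 3.58.1 (R 4.3.3) with an intensity trend on the deposited scale, all groups of a line in 1 fit, with Benjamini and Hochberg adjustment over all tested genes per comparison and a threshold of 0.05. There were 3 LLC1 and 10 KP comparisons, 6 with parental tumours. The fit was repeated after subtracting each library's B2m value. The estimated prior degrees of freedom were then infinite, so a fit with each gene's own spread was added after the data were seen. With 3 against 3 libraries an exact test cannot go below 0.1. The limma step was tested on simulated counts with planted changes. Lengths are those of the principal transcript. Promoters came from RefSeq (GRCm38.p6) and were found for all 6 members.

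All 6 members were described, with the 3 genes most like each, and list genes were named where called with at least 0.5 log2 units against parental tumours (at most 5 per list and comparison). Other list genes are given as counts. One listed gene, one motif and one allele of the KP line are not reported here. The members and lists were chosen with earlier results of these data known. In LLC1, deviations correlated above 0.1 in 0 of 9 same-numbered library pairs and 4 of 18 differently numbered pairs (median -0.052 and 0.040). In KP this went the other way, with 8 of 30 same-numbered and 8 of 60 differently numbered pairs (median 0.048 and 0.00014). The difference between same-numbered and differently numbered pairs was not tested. Alternatives were median centring, quantile normalisation, no filter or one of 3 log2 units, no trend, 2 groups only, array weights, back-calculated counts with a pseudocount of 10, the replicate number as a block and leaving out each library. Figures used matplotlib 3.10.9 in Python 3.11.15.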

Additional observations from a re-analysis of the deposited data

Results flagged for a closer look

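B2m lay on opposite sides of the parental mean in relapsed LLC1 tumours and in the 2nd and late relapse of KP. It was 0.13 log2 units higher than the parental mean in relapsed LLC1 tumours, with single libraries 0.05 to 0.23 above it, and 0.59 lower in the KP 2nd relapse (-0.59, single libraries -0.98 to -0.21). The late relapse of KP gave -0.13 (-0.32 to -0.00), and the 1st relapse 0.06, the same direction as LLC1. Every relapsed LLC1 library lay on one side of its parental mean and every 2nd and late relapse KP library on the other. The difference between lines was not tested, and the LLC1 and late relapse differences were themselves not called.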

How the results depend on the processing

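Most results kept their direction and their side of the threshold. Of the single-gene differences recomputed under settings other than leaving out a library, 990 kept both, 23 passed only under the alternative, 28 no longer passed and 8 changed sign; on leaving out 1 library these were 1527, 26, 66 and 28. Causes were not tested, except that stricter and absent filters change which genes are tested. With the stricter filter only H2-K1, H2-D1 and B2m stayed tested in either line. Its lower counts below therefore leave out H2-T23, H2-Q4 and H2-M3. KP counts in these paragraphs include H2-Q4. The count of members called in chronic IFNG LLC1 tumours went from 0 to 1 with array weights and was 0 to 4 on leaving out 1 library. In relapsed LLC1 it went from 4 to 2 with the stricter filter (3 to 4 leaving out a library). In chronic IFNG KP it was 0, and 1 with no filter, the stricter filter, 2 groups only, array weights or back-calculated counts (0 to 1 leaving out a library). With the stricter filter the 1st relapse went from 4 to 2 and the 2nd from 5 to 3 (3 to 4 and 3 to 5 leaving out a library). The late relapse went from 1 to 2 with no filter, 2 groups only or array weights (1 to 2 leaving out a library). Between other LLC1 groups 2 calls became 1 with no filter, the stricter filter, quantile normalisation or 2 groups only (1 to 2 leaving out a library), and the 15 KP calls became 11 to 16. The F test in LLC1 went from 4 members to 2 with no filter and 2 with the stricter filter (1 to 5 leaving out a library), and in KP gave 4 to 5.

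Against B2m with pooled spread, relapsed LLC1 went from 0 heavy chains to 4 with 2 groups only and 1 with back-calculated counts (0 to 3 leaving out a library). Chronic IFNG LLC1 gave 0 to 2. Chronic IFNG KP went from 1 to 4 with 2 groups only (0 to 1), the 1st relapse gave 1 to 3, and the 2nd relapse went from 4 to 2 with the stricter filter. The late relapse went from 1 to 3 with 2 groups only, 2 with back-calculated counts and 2 with own spread (1 to 3). Array weights could not be estimated on this scale. The counts in this and the preceding paragraph stand without the share of all genes called under each setting.

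The sign changed for small differences. H2-T23 in chronic IFNG LLC1 became 0.013 under quantile normalisation, 0.013 under median centring and 0.066 with array weights. H2-M3 between relapsed and chronic IFNG LLC1 became -0.044 under median centring and -0.013 with array weights. H2-K1 between late and 1st relapse became -0.031 under quantile normalisation. Relative to B2m, H2-M3 in relapsed LLC1 became 0.094 with back-calculated counts and H2-T23 between late and 1st relapse 0.033 under quantile normalisation. On leaving out 1 library, ranges that crossed 0 were, against parental tumours, -0.10 to 0.43 (H2-K1, chronic IFNG LLC1), -0.086 to 0.14 (H2-T23, chronic IFNG LLC1), -0.024 to 0.12 (B2m, 1st relapse) and -0.037 to 0.14 (H2-T23, late relapse). From chronic IFNG to relapsed LLC1 they were -0.036 to 0.027 (H2-M3), -0.10 to 0.34 (H2-Q4), -0.36 to 0.068 (B2m) and -0.089 to 0.35 (H2-D1). From chronic IFNG to late relapse KP they were -0.011 to 0.18 (H2-Q4), -0.045 to 0.12 (B2m), -0.16 to 0.028 (H2-T23) and -0.019 to 0.14 (H2-D1). From the 1st relapse they were -0.076 to 0.087 (H2-T23, 2nd) and -0.15 to 0.21 (H2-K1, late). Relative to B2m, H2-M3 in LLC1 gave -0.37 to 0.0037 (chronic IFNG), -0.10 to 0.029 (relapsed) and -0.049 to 0.32 (relapsed against chronic IFNG). From chronic IFNG KP, H2-T23 gave -0.19 to 0.0033 (1st relapse), H2-Q4 -0.040 to 0.12 and H2-D1 -0.074 to 0.11 (late relapse).

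Whether the replicate numbers pair the libraries was not tested. With the replicate number as a block, member calls went from 4 to 3 in the 1st relapse (H2-T23 0.26, limma adjusted p = 0.056), from 4 to 3 for the F test in LLC1 and from 3 to 2 against B2m in the 1st relapse; other member counts did not move. With 3 libraries a group and H2-M3 counts of 26.2 to 114 in KP, differences of that gene are compressed on the deposited scale.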
